A study of Homo sapiens with 60 samples.

Results

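The genes described are 36 interferon-stimulated and antigen presentation genes, followed in SW1783 cells, an established human astrocytoma line, across herbal extracts and doses. They were taken by symbol from a table of 60675 genes in 60 RNA-seq libraries; each symbol matched 1 gene identifier, and all 36 were among the 17190 genes that passed the filter on low counts. Cells were treated for 24 h with water extracts at 500 µg/mL (high dose), 100 µg/mL (medium dose) or 20 µg/mL (low dose), or with the vehicle, which is 0.1% DMSO in the sample labels and 2% DMSO in the design text of the series. The extracts were those of 4 herbs, Citri Unshius Pericarpium, Cimicifugae Rhizoma, Bupleuri Radix and Aconiti Lateralis Radix Preparata, and of 3 formulas, Yijung-tang, Banhasasim-tang and Bojungikgi-tang. Each group had 3 libraries, except Bojungikgi-tang with 1 library a dose, which was not tested. The number in the sample codes, called the code set here, was 5 for Citri Unshius Pericarpium and for Cimicifugae Rhizoma, 6 for Aconiti Lateralis Radix Preparata and for Bupleuri Radix, 7 for both Yijung-tang and Banhasasim-tang, and 8 for Bojungikgi-tang, while the vehicle had its own code. The 3 doses of an extract lie in 1 set, whereas in every comparison with the vehicle the extract and the code set cannot be told apart; all these comparisons share the 3 vehicle libraries. The labels do not say whether replicates came from separate cultures, so p-values measure the spread between these libraries, which may be technical. The comparisons ask which of these genes differ between doses of an extract, between extracts at a matched dose, and from the vehicle.

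Interferons are secreted proteins that bind cell surface receptors and, through the kinases JAK1 and TYK2, lead STAT2 and IRF9 to enter the nucleus in a complex that binds the interferon-stimulated response element (ISRE) in promoters. IRF1 and IRF7 bind related elements, and promoters that answer to interferon gamma carry the gamma-activated site (GAS). The genes switched on in this way encode proteins that block viral entry, replication and translation, sensors of viral RNA, and the parts of the class I pathway that shows peptides to T cells. Astrocytes can mount this response and take part in the defence of the brain against viruses.

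The promoters show which of these elements the genes carry, and 4 are printed because they stand for the kinds found: IFIT3 and IFITM1 hold an ISRE core, IRF1 holds a GAS and STAT2 holds neither. Each sequence is the 250 bases before the gene start, from RefSeq on GRCh38.p14, 5′ to 3′ on the strand of the gene, and capitals mark matches on either strand to the ISRE core, GAAA and GAAA with 2 bases of any kind between them, or to the GAS, TTC and GAA with 3 bases of any kind between them.
IFIT3 (chr10:89327747-89327996, plus strand): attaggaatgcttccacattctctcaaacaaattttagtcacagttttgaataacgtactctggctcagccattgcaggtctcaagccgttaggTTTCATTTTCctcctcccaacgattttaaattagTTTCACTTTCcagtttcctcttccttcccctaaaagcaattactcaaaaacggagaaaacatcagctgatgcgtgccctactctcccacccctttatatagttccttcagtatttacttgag
IFITM1 (chr11:313790-314039, plus strand): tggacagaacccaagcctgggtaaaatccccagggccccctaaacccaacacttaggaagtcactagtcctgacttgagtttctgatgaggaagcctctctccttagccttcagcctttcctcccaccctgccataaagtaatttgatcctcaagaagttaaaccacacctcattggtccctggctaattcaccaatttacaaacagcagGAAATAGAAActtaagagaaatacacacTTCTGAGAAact
IRF1 (chr5:132490774-132491023, minus strand): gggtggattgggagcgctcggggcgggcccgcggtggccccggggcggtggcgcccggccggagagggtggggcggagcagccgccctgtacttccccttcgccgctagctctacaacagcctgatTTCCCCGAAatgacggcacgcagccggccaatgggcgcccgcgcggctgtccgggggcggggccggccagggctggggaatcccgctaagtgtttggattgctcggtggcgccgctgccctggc
STAT2 (chr12:56360108-56360357, minus strand): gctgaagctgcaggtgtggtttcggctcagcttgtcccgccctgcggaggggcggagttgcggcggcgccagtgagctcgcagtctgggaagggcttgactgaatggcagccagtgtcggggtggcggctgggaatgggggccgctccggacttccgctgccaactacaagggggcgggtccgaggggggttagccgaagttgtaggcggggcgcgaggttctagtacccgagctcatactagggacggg
IFIT3 has 2 matches to the ISRE core, which begin 156 and 122 bases before the gene start. IFITM1 has 1 match 40 bases before the start and a further one that begins 6 bases before it and runs past the printed stretch; its GAS match overlaps that one. Over 300 bases, from 250 before to 50 after the start, RefSeq entries were at hand for 30 of the 36 genes, and 18 of them (60%) held the ISRE core, against 996 of 27305 promoters of all genes (3.65%). The GAS was found in 8 of the 30 (26.7%) and in 7.88% of all promoters. A match of letters is a description and does not show that a factor binds there.

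Levels are given as CPM, the expected count of a gene scaled to the library size with TMM factors. Exon length here counts every base in any annotated exon of a gene, 6079 bases for B2M and 1348 for IFITM3. It can exceed the length of any 1 transcript, so the order of genes depends on the annotation. Before division by length, vehicle libraries held 673 to 675 CPM of B2M and 287 to 292 CPM of IFITM3. Per kilobase of exon in the vehicle libraries, the level ran from 215 ± 1.97 CPM (SD, n = 3) for IFITM3, a membrane protein that hinders virus entry, down to 0.17 ± 0.0659 CPM for OAS1, an enzyme that makes the activator of RNase L. HLA-C, a class I heavy chain, stood at 164 ± 0.609 CPM per kilobase, HLA-B at 111 ± 0.676 and B2M, their shared light chain, at 111 ± 0.153. Below these 4 genes came BST2, which tethers budding virions, at 82.4 ± 3.07, and a group from ISG15 to IFI44 between 30.9 and 21.3 CPM per kilobase. MX2, a GTPase that blocks retroviruses, and ISG20, an exonuclease, were also low, at 0.321 ± 0.0481 and 0.174 ± 0.0243. B2M had between 12229 and 26773 counts a library and OAS1 between 8 and 56, so small differences of OAS1 were not detectable at this depth. Of 10 interferon genes measured for comparison, 2 passed the filter: IFNG, IFNL2 and IFNL3 had a count of 0 in all 60 libraries, IFNB1 in 51 of them with at most 2 counts, and those that passed were IFNE, at 8.33 ± 0.192 CPM in vehicle libraries, and IFNA1, at 0.382 ± 0.267 CPM.

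Total expected counts were 18.9 to 36.4 M a library. The library of Cimicifugae Rhizoma high replicate 3 and that of Citri Unshius Pericarpium low replicate 3 stood farther from their groups than any other. Their mitochondrial shares of counts were 7.69%, against 5.32 and 5.43% in the other libraries of the group, and 7.37%, against 5.75 and 5.88%. The next farthest was Yijung-tang high replicate 3, and in high dose Yijung-tang libraries this share ran from 5.94 to 8.21%. The mitochondrial share of counts was 8.99 to 9.29% in high, 10.6 to 10.8% in medium and 6.45 to 7.56% in low dose libraries of Aconiti Lateralis Radix Preparata, against 5.03 to 5.29% in vehicle libraries; the part of this share in the results was not tested. Of 9 astrocytic markers, VIM, CD44, SOX9, SLC1A3 and NES passed the filter, whereas GFAP, S100B, AQP4 and ALDH1L1 were at or near 0 in every group. Between high and low dose of that extract VIM rose and the other 4 fell, among them the glutamate transporter SLC1A3 to 6.28 ± 0.203 CPM at the high dose against 29 ± 2.21 CPM at the low dose, while the summed list was 7.58e+03 to 7.64e+03 CPM at the high and 7.33e+03 to 7.49e+03 CPM at the low dose. Of 10 immune cell markers, 8 were at or near 0; PTPRC and CSF1R were measured, and the summed level of the list was 5.2 to 7.31 CPM in high dose Aconiti Lateralis Radix Preparata against 16.7 to 17.5 CPM in vehicle libraries. At the high dose it was 12 to 12.9 CPM in Cimicifugae Rhizoma, 11.2 to 14 CPM in Citri Unshius Pericarpium, 14 to 16.6 CPM in Bupleuri Radix, 11.2 to 12.2 CPM in Yijung-tang and 13.2 to 15.3 CPM in Banhasasim-tang, and its part in the results was not tested. In RNA from whole cultures, fewer cells of a kind and less RNA per cell cannot be told apart.

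The response of these genes differed in size and direction between extracts (the chart of change by extract). Between high and low dose, 16 of the 36 rose and 10 fell in Aconiti Lateralis Radix Preparata, where 30.4% of all genes rose and 27.4% fell. Cimicifugae Rhizoma raised 15 (11.7% of all genes rose) and Banhasasim-tang raised 10 (3.08% of all genes rose). Yijung-tang raised 2 and lowered 8, where 10.2% of all genes rose and 11.5% fell. Bupleuri Radix lowered 4 (2.45% of all genes fell), and Citri Unshius Pericarpium raised 2 and lowered 2, where 8.19% of all genes rose and 10.0% fell. Over these extracts, 15 genes were called higher in at least 1 extract and lower in none, 7 lower and never higher, 9 in both directions depending on the extract, and 5 in no extract. The 5 were ISG15, ISG20, IFI6, IFI35 and OAS1. This split over extracts was not counted for all genes, so it cannot be set against their share. Genes with an adjusted p under 0.05 were called, where p came from the quasi-likelihood test of edgeR and was adjusted by the Benjamini-Hochberg method over all 17190 genes.

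**Figure D1:**
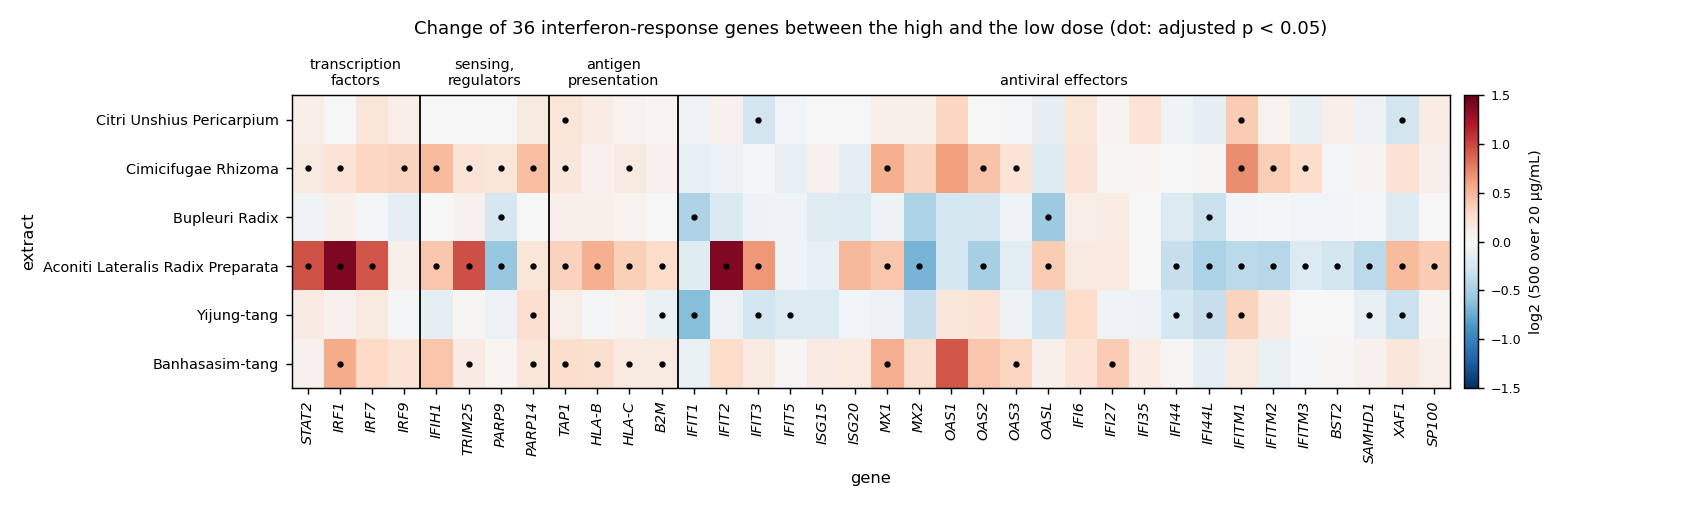
Log2 change between 500 and 20 µg/mL (colour) for 36 genes, grouped by role, in 6 extracts with 3 libraries a dose; a dot marks an adjusted p under 0.05. The row of Aconiti Lateralis Radix Preparata holds 16 genes called higher and 10 called lower, and those of Cimicifugae Rhizoma and Banhasasim-tang hold 15 and 10 called higher and 0 called lower.

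High dose Aconiti Lateralis Radix Preparata raised transcription factors of the interferon response and all 4 antigen presentation genes. Antiviral effectors went both ways, as genes in general did. The share of the 36 genes that fell was close to that of all genes. Of the 36 genes, 16 rose and 10 fell between high and low dose, where 30.4% of all genes rose and 27.4% fell, and the median log2 change was 0.14 for the 36 genes and 0.01 for all genes. Among transcription factors 3 of 4 rose, among sensors and regulators 3 rose and 1 fell, among antigen presentation genes 4 of 4 rose, and among 24 antiviral effectors 6 rose and 9 fell. Against the vehicle, 15 rose and 10 fell, where 31.5% of all genes rose and 28.9% fell.

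IRF1, a transcription factor that interferon gamma and inflammatory signals induce, lies on chromosome 5 from 132481609 to 132490798 on the minus strand (GENCODE release 29, GRCh38). It stood at 61.6, 64.6 and 63.2 CPM in high dose Aconiti Lateralis Radix Preparata libraries, against 23.8, 24.8 and 23.1 CPM at the low dose and 25.3, 27.4 and 26.1 CPM in vehicle libraries. The high dose libraries lay above every other library of the series for this gene. The log2 change from the low dose was 1.40 ± 0.0518 (SE; edgeR adjusted p = 1.9e-28), and the medium dose averaged 26.5 ± 0.726 CPM, so that nearly all of the difference lay between medium and high dose. Its promoter, printed above, holds the GAS and no ISRE core.

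STAT2, which acts with IRF9 in binding the ISRE, lies on chromosome 12 from 56341597 to 56360155 on the minus strand. Its libraries read 70.8, 74.3 and 72 CPM at the high dose, against 37.2, 37.3 and 37.7 CPM at the low dose and 34.1, 37.7 and 31.9 CPM in the vehicle. High dose and low dose did not overlap, and the medium dose, at 47.5 ± 1.38 CPM, lay between them. The log2 change was 0.95 ± 0.0542 between high and low dose (edgeR adjusted p = 6.47e-21) and 0.35 ± 0.056 between medium and low dose (edgeR adjusted p = 4.46e-06).

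IRF7, the factor that amplifies type I interferon genes, was measured at 9.9, 10.5 and 11.1 CPM in high dose libraries, against 5.04, 5.39 and 6.1 CPM in low dose libraries and 3.93, 5.38 and 4.8 CPM in vehicle libraries. High and low dose did not overlap, and the medium dose averaged 5.51 ± 0.316 CPM. IRF7 rose by 0.94 ± 0.126 on the log2 scale (edgeR adjusted p = 8.63e-09). IRF9, the DNA-binding subunit that works with STAT2, had a log2 change of 0.08 ± 0.104 between high and low dose (edgeR adjusted p = 0.509).

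Among sensors and regulators, TRIM25, a ubiquitin ligase that acts on the RNA sensor RIG-I, rose in steps with dose. It lies on chromosome 17 from 56836387 to 56914080 on the minus strand, and DGKE overlaps it on the other strand; no source used here says whether strand was used in counting, so reads of overlapping genes may be mixed. The vehicle libraries read 76.3, 78.6 and 77.3 CPM, the low dose libraries 81.4, 87.9 and 79.4 CPM, the medium dose libraries 106, 111 and 112 CPM and the high dose libraries 158, 166 and 164 CPM. No 2 doses overlapped, and the log2 change was 0.97 ± 0.0353 between high and low dose (edgeR adjusted p = 1.02e-28) and 0.40 ± 0.0361 between medium and low dose (edgeR adjusted p = 1.02e-12). IFIH1, the sensor MDA5, rose by 0.41 ± 0.143 on the log2 scale and PARP14, an ADP-ribosyltransferase, by 0.18 ± 0.0547. PARP9, the partner of DTX3L, went the other way: it stood at 8.02 ± 0.375 CPM at the high dose against 11.9 ± 1.11 CPM at the low dose, a log2 change of -0.57 ± 0.0775 (edgeR adjusted p = 1.39e-08).

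IFIT2 and IFIT3 rose among the antiviral effectors. Both lie on the plus strand of chromosome 10, at 89283694 to 89309276 and 89327894 to 89340971, with LIPA overlapping on the other strand. IFIT2 read 17.7, 21.9 and 22.1 CPM in high dose Aconiti Lateralis Radix Preparata libraries, against 7.64, 8.18 and 7.79 CPM at the low dose and 7.3, 7.8 and 6.44 CPM in the vehicle. The lowest high dose library stood above the highest of the series outside this group, and the log2 change from the low dose was 1.39 ± 0.149 (edgeR adjusted p = 1.89e-11). IFIT3 read 31.6, 35.4 and 36.2 CPM at the high dose, against 21.9, 23 and 21.2 CPM at the low dose and 21.6, 21.9 and 20.7 CPM in the vehicle. Here too the groups did not overlap, with a log2 change of 0.65 ± 0.0776 (edgeR adjusted p = 4.39e-10). Their neighbour IFIT1, with 2 ISRE cores in its promoter like IFIT3, had a log2 change of -0.18 ± 0.119 that did not pass the test (edgeR adjusted p = 0.197). The other effectors that rose were XAF1, MX1, SP100 and OASL, by 0.38 to 0.48 on the log2 scale.

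MX2 had the largest log2 change downward of the 24 effectors. Its high dose libraries read 2.82, 3.09 and 3.39 CPM, its low dose libraries 4.29, 6.79 and 4.15 CPM and its vehicle libraries 4.08, 4.87 and 3.63 CPM. The high dose libraries lay below all others of these groups, although the low dose libraries were widely spread, and the log2 change was -0.70 ± 0.167 against the low dose (edgeR adjusted p = 0.000311) and -0.44 ± 0.171 against the vehicle (edgeR adjusted p = 0.0251). The call against the vehicle was lost without vehicle replicate 2 (log2 change -0.31, edgeR adjusted p = 0.174) and without high dose replicate 1 or replicate 2. IFI44L fell by 0.47 on the log2 scale, and OAS2, IFITM2, IFITM1, SAMHD1, IFI44, BST2 and IFITM3 had log2 changes between -0.50 and -0.21. IFITM1, IFITM2 and IFITM3 are close paralogs whose reads may have been divided between them by estimate. By promoter, 6 of 13 genes that rose and have a RefSeq entry held an ISRE core, as did 5 of 7 that fell and 7 of 10 that were not called.

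**Figure D2:**
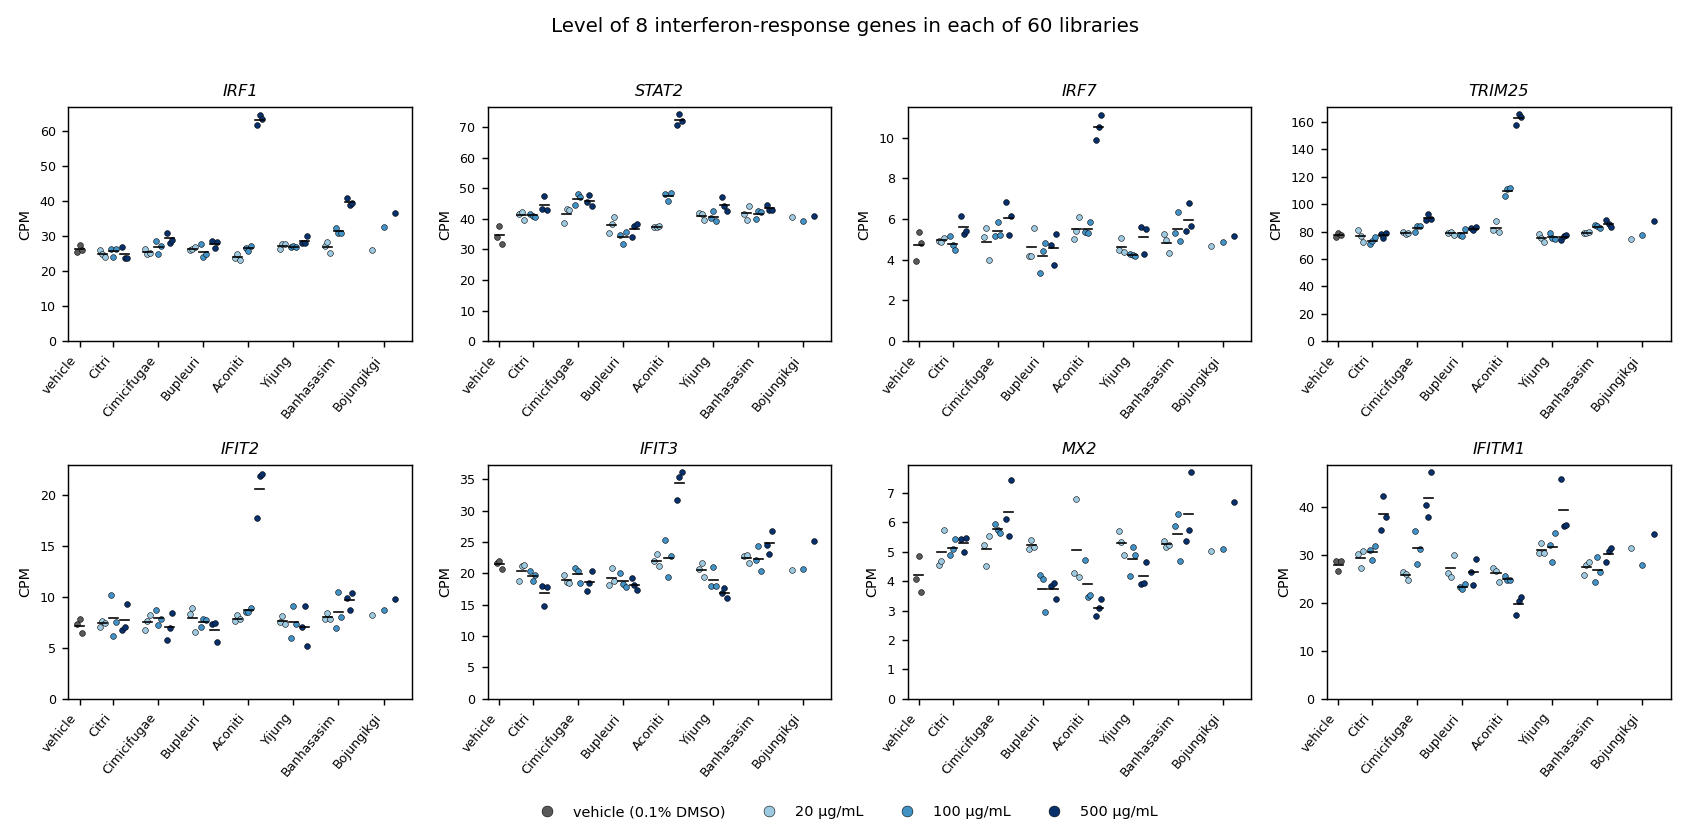
CPM of 8 genes in each of 60 libraries (points), with the vehicle at the left and the 3 doses of each extract in order; lines are group means of 3 libraries, and Bojungikgi-tang has 1 library a dose. IRF1, STAT2, IRF7, TRIM25, IFIT2 and IFIT3 are highest in high dose Aconiti Lateralis Radix Preparata, where MX2 averages 3.1 CPM and IFITM1 averages 19.7 CPM, the lowest group means of either gene.

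The 4 antigen presentation genes rose together in high dose Aconiti Lateralis Radix Preparata. HLA-B read 467, 512 and 469 CPM at the high dose against 358, 320 and 325 CPM at the low dose, with no overlap, a log2 change of 0.53 ± 0.0568 (edgeR adjusted p = 2e-11). HLA-C averaged 528 ± 11.2 CPM at the high against 413 ± 10.2 CPM at the low dose, B2M 872 ± 30.2 CPM at the high against 721 ± 26.2 CPM at the low dose, and TAP1, a subunit of the peptide transporter, 96.3 ± 1.12 CPM at the high against 75.7 ± 2.43 CPM at the low dose (SD, n = 3 each). HLA-B and HLA-C are alike in sequence and overlap in the annotation on chromosome 6, and the line may carry alleles other than those of the reference, so their separate values are uncertain. Of 14 further class I genes tested, 9 rose and the others were not called: ERAP1, a peptide-trimming enzyme, by 0.42 ± 0.0302 on the log2 scale, HLA-E by 0.39 ± 0.0379 and PSMB10, an immunoproteasome subunit, by 0.32 ± 0.095. Of the class II list, 2 of 8 tested genes rose and 3 fell. Both lists stand beside 30.4% of all genes that rose and 27.4% that fell in this comparison. CIITA, the master regulator of class II genes, averaged 5.34 ± 0.587 CPM at the high and 12.9 ± 1.42 CPM at the low dose.

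The rest of the pathway in Aconiti Lateralis Radix Preparata was mixed as well, in a comparison where 30.4% of all genes rose and 27.4% fell. Among 10 receptors and kinases, 3 rose and 4 fell: JAK2 stood at 50.5 ± 2.22 CPM at the high against 31.9 ± 0.769 CPM at the low dose and JAK1 rose by 0.36 ± 0.0308 on the log2 scale, whereas IFNAR1, a chain of the type I receptor, had a log2 change of -0.29 ± 0.0354. Of 6 feedback inhibitors 1 rose and 4 fell, among them SOCS3, at 15.6 ± 1.86 CPM at the high against 27.3 ± 1.9 CPM at the low dose, and USP18, at 3.37 ± 0.773 CPM at the high against 5.45 ± 0.277 CPM at the low dose. Of 9 nucleic acid sensing genes tested 2 rose and 5 fell: DHX58, the sensor LGP2, averaged 9.21 ± 0.257 CPM at the high against 4.28 ± 0.158 CPM at the low dose, and IKBKE, a kinase that activates IRF3 and IRF7, 3.58 ± 0.275 CPM at the high against 9.07 ± 0.255 CPM at the low dose. Of 32 other interferon-stimulated genes tested, 11 rose and 9 fell. HERC5, the ligase that attaches ISG15, averaged 4.75 ± 0.625 CPM at the high against 1.75 ± 0.146 CPM at the low dose, and RSAD2, the antiviral enzyme viperin, 1.7 ± 0.18 CPM at the high against 0.409 ± 0.0889 CPM at the low dose. LAMP3, a lysosomal membrane protein, averaged 3.98 ± 0.847 CPM at the high and 0.115 ± 0.0567 CPM at the low dose. GBP2, a GTPase, was lower, at 4.98 ± 0.537 CPM at the high and 9.22 ± 0.862 CPM at the low dose. IFNE, the interferon with a measurable level, had a log2 change of -0.28 ± 0.114 (edgeR adjusted p = 0.0334). The summed level of the 10 interferon genes was 6.08 to 6.81 CPM at this high dose, against 8.46 to 9 CPM in the vehicle. A sum below the vehicle was not limited to this extract. In Cimicifugae Rhizoma it was 5.07 to 6.15 CPM at the high and 5.67 to 5.96 CPM at the low dose. In high dose Bupleuri Radix, at 7.55 to 8.53 CPM, it overlapped the vehicle.

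At the medium dose of Aconiti Lateralis Radix Preparata, 9 of the 36 genes already differed from the low dose, 5 higher and 4 lower, where 20.4% of all genes differed. TRIM25, STAT2, XAF1, HLA-B and HLA-C rose, and PARP9, IFI44, IFI44L and SAMHD1 fell, each in the direction of the high dose. At the low dose 0 of the 36 differed from the vehicle (2.19% of all genes), with 5 at an unadjusted p under 0.05 and 0 called by DESeq2 or limma-voom.

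At the high dose 26 of the 36 genes differed between Aconiti Lateralis Radix Preparata and Bupleuri Radix, the herb of the same code set. Of these, 18 were higher in Aconiti Lateralis Radix Preparata and 8 lower, where 30.3% of all genes were higher and 28.0% lower. IFIT2 was 1.60 ± 0.149 higher on the log2 scale (95% interval 1.31 to 1.89), IRF7 1.21 ± 0.126 and OASL 0.97 ± 0.123. At the low dose 0 of 36 differed between the same extracts (0.535% of all genes), with 4 at an unadjusted p under 0.05 and 0 called by DESeq2 or limma-voom. The change between high and low dose itself differed for 18 genes, 13 upward and 5 downward, where it differed for 44.0% of all genes.

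In Bupleuri Radix alone, between high and low dose, 0 genes rose and 4 fell, where 1.92% of all genes rose and 2.45% fell; no gene had an unadjusted p under 0.05 in the upward direction, and DESeq2 and limma-voom called 0 higher too. OASL, an inactive relative of the OAS enzymes that acts on RIG-I, read 9.39, 7.8 and 7.18 CPM at the high dose, against 11.5, 11.9 and 12 CPM at the low dose and 12.1, 12.3 and 11.1 CPM in the vehicle. The groups did not overlap, and the log2 change was -0.54 ± 0.127 (edgeR adjusted p = 0.00529). IFIT1 averaged 7.7 ± 0.914 CPM at the high against 10.6 ± 1.05 CPM at the low dose, IFI44L 34.7 ± 1.45 CPM at the high against 43.7 ± 4.79 CPM at the low dose, and PARP9 had a log2 change of -0.25 ± 0.0696. Only 2 genes fell without high dose replicate 1, high dose replicate 3 or low dose replicate 3. Against the vehicle, OASL and IFI44L fell at the high dose and 0 genes rose, where 3.01% of all genes rose and 4.01% fell; 1 gene was higher at an unadjusted p under 0.05, and DESeq2 and limma-voom called 0 higher. The count of 2 was 1 without vehicle replicate 1 or 2 or high dose replicate 1 or 2, 5 with no filter on low counts and 6 with the compared libraries alone. Between medium and low dose 0 differed (0.0407% of all genes; 8 at an unadjusted p under 0.05), and between low dose and vehicle 0 (0.0756%; 3 at an unadjusted p under 0.05), and DESeq2 and limma-voom called 0 in both.

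Cimicifugae Rhizoma raised genes of all 4 roles and lowered none by the test. Between high and low dose 15 of 36 rose and 0 fell, where 11.7% of all genes rose and 13.5% fell, and the median log2 change was 0.16 for the 36 genes and 0.00 for all genes. At an unadjusted p under 0.05, 1 gene was lower, and DESeq2 and limma-voom called 13 and 15 higher and 0 lower. All 4 sensors and regulators, 3 of 4 transcription factors, 2 of 4 antigen presentation genes and 6 of 24 antiviral effectors rose. The count was 5 when the spread was estimated from the 6 compared libraries alone and 10 without the 2 libraries that stood apart. Over all genes those settings called 1446 and 3447, against 2004 higher and 2313 lower in the fit of 57 libraries.

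IFITM1, which with its paralogs restricts virus entry, lies on chromosome 11 from 313506 to 315272 on the plus strand, within the annotated span of IFITM2. It read 40.5, 38.1 and 47.4 CPM in high dose Cimicifugae Rhizoma libraries, against 26.5, 26.1 and 24.9 CPM at the low dose and 28.7, 26.7 and 28.8 CPM in the vehicle. The high dose libraries lay above both other groups, and the log2 change was 0.70 ± 0.0873 between high and low dose (edgeR adjusted p = 1.74e-08). In Aconiti Lateralis Radix Preparata the same gene was low, at 17.5, 20.4 and 21.3 CPM at the high against 27.4, 26.7 and 24.5 CPM at the low dose, a log2 change of -0.40 ± 0.0981 (edgeR adjusted p = 0.000398). Its promoter carries the ISRE core and the GAS shown above.

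PARP14 read 31.8, 33.4 and 34.3 CPM in high dose Cimicifugae Rhizoma libraries against 23.3, 24 and 25.6 CPM at the low dose, without overlap, a log2 change of 0.45 ± 0.0512 (edgeR adjusted p = 2.19e-09). IFIH1 averaged 5.79 ± 0.154 CPM at the high against 4.19 ± 0.616 CPM at the low dose. MX1, a GTPase against RNA viruses, read 11.4, 11.3 and 17.7 CPM at the high against 9.2, 10.3 and 8.47 CPM at the low dose. IFITM3 read 313, 303 and 402 CPM at the high against 278, 290 and 283 CPM at the low dose. In both genes replicate 3 of the high dose, which stood apart, was well above the other 2. STAT2 and IRF1 rose by 0.14 ± 0.0541 and 0.20 ± 0.0534 on the log2 scale; the call of STAT2 was lost with DESeq2 (DESeq2 adjusted p = 0.0559), with no filter on low counts, with the compared libraries alone and without either high dose replicate 1 or 2 or low dose replicate 1. That of IRF1 was lost with the compared libraries alone (edgeR adjusted p = 0.062).

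Against the vehicle 18 of 36 rose at the high dose of Cimicifugae Rhizoma and 0 fell, where 15.1% of all genes rose and 17.5% fell; 2 were lower at an unadjusted p under 0.05, and DESeq2 and limma-voom called 0 lower. With no filter on low counts 17 rose and 1 fell, and without the 2 libraries that stood apart 14 rose and 1 fell. The count of 18 was 10 with the compared libraries alone. Over all genes that setting called 2794, against 2589 higher and 3003 lower in the fit of 57 libraries. IRF9 was 0.47 ± 0.0988 higher than in the vehicle on the log2 scale, MX2 0.59 ± 0.148 and IFITM1 0.59 ± 0.0871. Between medium and low dose 0 differed (0.105% of all genes; 4 at an unadjusted p under 0.05; 0 by DESeq2 and limma-voom), and between low dose and vehicle STAT2 alone did, higher by 0.26 ± 0.0565 on the log2 scale, where 1.27% of all genes differed; the call was lost without vehicle replicate 1 or 3 or low dose replicate 2 or 3.

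Citri Unshius Pericarpium, of the same code set, changed few of the genes. Between high and low dose IFITM1 and TAP1 rose and IFIT3 and XAF1 fell, where 8.19% of all genes rose and 10.0% fell. IFITM1 read 35.3, 42.5 and 38 CPM at the high dose, against 30.3, 27.3 and 30.8 CPM at the low dose and 28.7, 26.7 and 28.8 CPM in the vehicle, above both. IFIT3 read 18, 14.8 and 17.8 CPM at the high dose against 18.8, 21.1 and 21.3 CPM at the low dose and 21.6, 21.9 and 20.7 CPM in the vehicle. The log2 changes from the low dose were 0.38 ± 0.0868 for IFITM1 (edgeR adjusted p = 0.000989) and -0.27 ± 0.0831 for IFIT3 (edgeR adjusted p = 0.0177). The call of IFIT3 was lost without high dose replicate 2 (log2 change -0.19, edgeR adjusted p = 0.157), without low dose replicate 2 or 3, without the 2 libraries that stood apart and with the compared libraries alone (edgeR adjusted p = 0.0997), and without low dose replicate 3 the 4 genes called were 2. With the compared libraries alone 1 of these genes was called. Over all genes that setting called 986, against 1408 higher and 1727 lower in the fit of 57 libraries. Against the vehicle IFITM1 and STAT2 rose and IFIT3 and IFI44L fell, where 9.82% of all genes rose and 11.8% fell. Medium and low dose differed in 0 genes (0.227% of all genes; 2 at an unadjusted p under 0.05; 0 by DESeq2 and limma-voom), and STAT2 was the gene that differed between low dose and vehicle, higher by 0.25 ± 0.0565 on the log2 scale, where 1.88% of all genes did; the call was lost without vehicle replicate 1 or 3.

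At the high dose, 11 of the 36 genes were higher in Cimicifugae Rhizoma than in Citri Unshius Pericarpium and 0 lower, where 5.76% of all genes were higher and 6.51% lower; 0 were lower at an unadjusted p under 0.05 and by DESeq2 or limma-voom. PARP14 was 0.29 ± 0.0501 higher on the log2 scale (95% interval 0.19 to 0.39), PARP9 0.30 ± 0.0663 and XAF1, a protein that favours cell death, 0.41 ± 0.0861. For IFITM1, which rose in both extracts, the difference was 0.13 ± 0.0829 (interval -0.03 to 0.29), which did not pass the test. The count of 11 was 5 without Cimicifugae Rhizoma high replicate 3, 6 without Citri Unshius Pericarpium high replicate 3 and 1 with the compared libraries alone. At the low dose 0 differed (0.163% of all genes; 3 at an unadjusted p under 0.05; 0 by DESeq2 and limma-voom). The change between high and low dose differed for TRIM25, XAF1, IFITM3 and PARP14, all upward in Cimicifugae Rhizoma. These 4 of 36 were no larger a share than the 11.1% of all genes for which it differed. The 4 were 2 without Citri Unshius Pericarpium low replicate 3, 7 without its low replicate 2 and 8 without Cimicifugae Rhizoma high replicate 2. They were 1 without both libraries that stood apart and 0 with the compared libraries alone.

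Banhasasim-tang raised the antigen presentation genes and IRF1. Between high and low dose 10 of 36 rose and 0 fell, where 3.08% of all genes rose and 3.58% fell, and the median log2 change was 0.14 for the 36 genes and -0.00 for all genes. At an unadjusted p under 0.05, 16 were higher and 1 lower, and DESeq2 and limma-voom called 10 and 11 higher and 0 lower. All 4 antigen presentation genes, 1 of 4 transcription factors, 2 of 4 sensors and regulators and 3 of 24 antiviral effectors rose. The count was 5 without low dose replicate 1 or without high dose replicate 3.

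IRF1 read 25.3, 27.4 and 26.1 CPM in the vehicle, 27.2, 28.3 and 25.1 CPM at the low dose of Banhasasim-tang, 32.3, 30.8 and 30.8 CPM at the medium and 40.8, 38.9 and 39.3 CPM at the high dose. The 3 doses did not overlap, and the log2 change was 0.56 ± 0.0499 between high and low dose (edgeR adjusted p = 1.96e-12) and 0.22 ± 0.0508 between medium and low dose (edgeR adjusted p = 0.0225). HLA-B read 417, 397 and 442 CPM at the high against 355, 356 and 353 CPM at the low dose, and TAP1 read 90.9, 97.9 and 93.3 CPM at the high against 79.1, 80.6 and 75.5 CPM at the low dose. Neither gene overlapped between the doses, and their log2 changes were 0.24 ± 0.0561 and 0.26 ± 0.0435 (edgeR adjusted p = 0.00319 and 1.76e-05). Of 14 further class I genes tested, 8 rose and the others were not called, where 3.08% of all genes rose. Log2 changes among the 8 were 0.36 ± 0.0883 for PSMB10, 0.23 ± 0.0437 for TAPBP, the chaperone tapasin, and 0.22 ± 0.0297 for ERAP1. OAS3 stood at 31.4, 35.1 and 38.3 CPM at the high against 28.2, 28.7 and 26.8 CPM at the low dose. MX1 stood at 14.3, 16 and 21.8 CPM at the high against 12.2, 12.9 and 10.6 CPM at the low dose. In both genes the high dose was above the low dose and replicate 3 was the highest. TRIM25 rose by 0.12 ± 0.0353 on the log2 scale, a call that was lost with the compared libraries alone, with no filter on low counts (edgeR adjusted p = 0.165) and without 5 of the 6 libraries in turn.

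Against the vehicle, 17 of 36 rose at the high dose of Banhasasim-tang and 0 fell, where 7.99% of all genes rose and 8.82% fell; 1 was lower at an unadjusted p under 0.05, and DESeq2 and limma-voom called 18 and 16 higher and 0 lower. With a replicate block 17 rose and 1 fell. MX1 was 0.75 ± 0.147 higher on the log2 scale, XAF1 0.57 ± 0.0853, MX2 0.56 ± 0.147 and OAS3 0.55 ± 0.0691. Between medium and low dose IRF1 alone differed, where 0.506% of all genes did, a call that was lost without any of 5 of the 6 libraries. Between low dose and vehicle SAMHD1, OAS3, XAF1 and STAT2 were higher, by 0.17 to 0.40 on the log2 scale, where 5.75% of all genes differed.

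Yijung-tang lowered 7 of 24 antiviral effectors between high and low dose and raised 1, IFITM1, with 16 not called; among the other genes B2M fell and PARP14 rose. In all, 2 of 36 rose and 8 fell, where 10.2% of all genes rose and 11.5% fell, and the median log2 change was -0.05 for the 36 genes and 0.00 for all genes. IFIT1 read 6.06, 8.35 and 7.27 CPM at the high dose, against 10.4, 12.7 and 11.3 CPM at the low dose and 9.21, 9.35 and 10.5 CPM in the vehicle. The high dose libraries were below all libraries of the other 2 groups, and the log2 change was -0.64 ± 0.12 between high and low dose (edgeR adjusted p = 5.62e-05). IFI44L, XAF1, IFIT3, IFI44, IFIT5, SAMHD1 and B2M fell by 0.10 to 0.34 on the log2 scale. The call of IFIT3 was lost without low dose replicate 2 (edgeR adjusted p = 0.0615) or high dose replicate 3 (edgeR adjusted p = 0.063). IFITM1 read 46, 36.1 and 36.3 CPM at the high against 30.5, 32.6 and 30.5 CPM at the low dose, a log2 change of 0.33 ± 0.0848 (edgeR adjusted p = 0.00284) that was 0.21 without high dose replicate 1 (edgeR adjusted p = 0.0965). Against the vehicle 5 rose and 6 fell at the high dose, of which 4 and 6 were effectors, where 15.3% of all genes rose and 16.7% fell; IFI6, a protein of mitochondria and endoplasmic reticulum, was 0.65 ± 0.128 higher on the log2 scale, and ISG15, a protein tag, had a log2 change of -0.38 ± 0.0942. Medium and low dose differed in 0 genes (0.116% of all genes; 2 at an unadjusted p under 0.05; 0 by DESeq2 and limma-voom). Between low dose and vehicle SAMHD1, XAF1, IFITM3 and STAT2 were higher, by 0.11 to 0.35 on the log2 scale, where 6.38% of all genes differed; 1 was called without vehicle replicate 3 or low dose replicate 2.

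The formulas Yijung-tang and Banhasasim-tang share a code set, and at the high dose 28 of the 36 genes differed between them (the plot of the formulas at the high dose). Of these, 26 were lower in Yijung-tang and 2, IFITM1 and IFITM2, were higher, where 12.7% of all genes were lower and 11.1% higher; the median log2 difference was -0.26 for the 36 genes and 0.01 for all genes. Genes of every role were lower: 17 of 24 antiviral effectors, 3 of 4 sensors and regulators, 2 of 4 transcription factors and 4 of 4 antigen presentation genes. MX1 stood at 10.7, 8.87 and 9.89 CPM in Yijung-tang against 14.3, 16 and 21.8 CPM in Banhasasim-tang, without overlap and with a log2 difference of -0.82 ± 0.146 (95% interval -1.11 to -0.53; edgeR adjusted p = 2.43e-05). OAS1 had a log2 difference of -0.98 ± 0.34 at 0.799 ± 0.286 CPM in Yijung-tang and 1.6 ± 0.698 CPM in Banhasasim-tang, with replicate 3 of Banhasasim-tang at 2.4 CPM. OAS3 read 23.4, 22.6 and 22.8 CPM in Yijung-tang against 31.4, 35.1 and 38.3 CPM in Banhasasim-tang, and IRF1 read 27.9, 27.9 and 30.1 CPM in Yijung-tang against 40.8, 38.9 and 39.3 CPM in Banhasasim-tang. The formulas did not overlap in either gene, with log2 differences of -0.60 ± 0.0688 and -0.47 ± 0.0507 (edgeR adjusted p = 1.34e-09 and 2.97e-10). STAT2 did not pass the test, with a difference of 0.04 ± 0.0536 (interval -0.07 to 0.14).

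**Figure D3:**
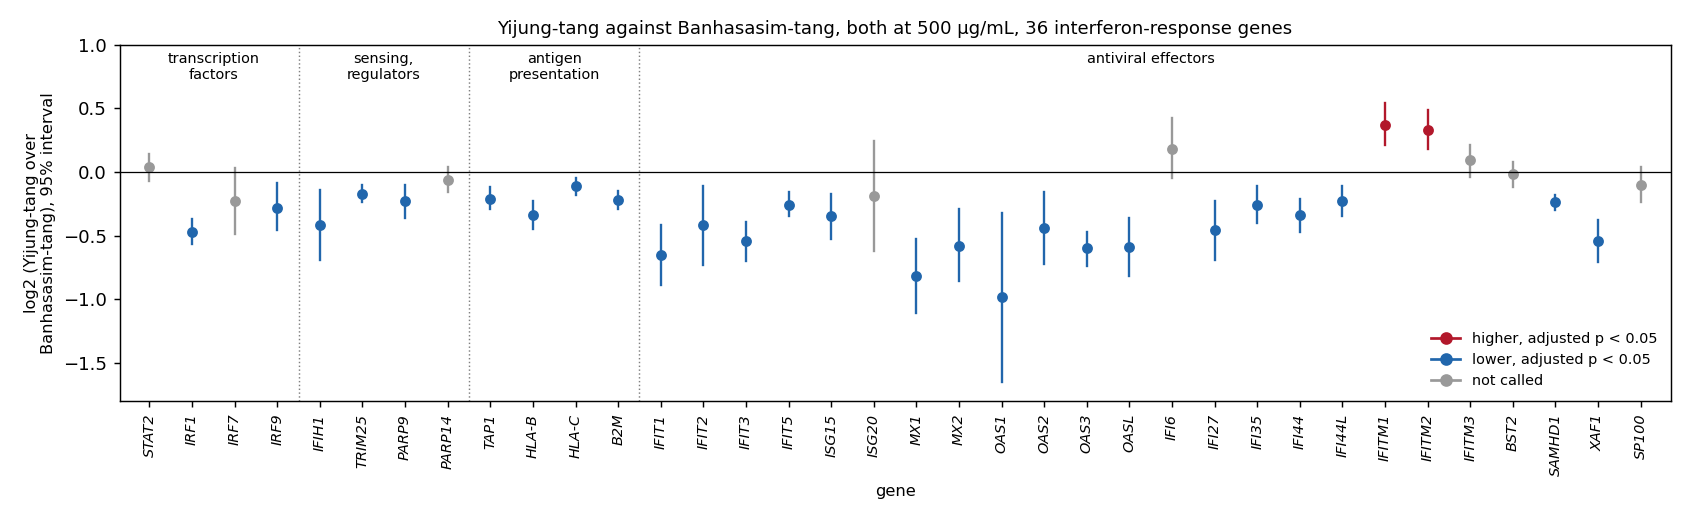
Log2 difference of Yijung-tang over Banhasasim-tang at 500 µg/mL for 36 genes (points) with 95% intervals (lines), by role, from 3 libraries a group. Blue marks the 26 genes lower in Yijung-tang, red the 2 higher and grey the 8 not called.

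The count of 28 ranged from 20 to 27 when a library was left out and was 24 with the compared libraries alone. At the low dose of the same formulas 0 of 36 differed (0.0873% of all genes), with 3 at an unadjusted p under 0.05 and 0 called by DESeq2 and limma-voom. The change between high and low dose differed for 12 genes, all downward in Yijung-tang, where it differed for 10.1% of all genes. IRF1 had a difference in change of -0.49 ± 0.0724 (edgeR adjusted p = 2.72e-06), HLA-B of -0.26 ± 0.0797 and MX1 of -0.63 ± 0.208. The 12 were 7 without Yijung-tang low replicate 2, without Banhasasim-tang high replicate 3 or with the compared libraries alone. In the other lists at the high dose, 13 of 32 other interferon-stimulated genes tested were lower in Yijung-tang and the others were not called. Of 14 further class I genes 9 were lower and the others were not called. Of all genes, 12.7% were lower in this comparison.

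Across libraries, the mean log2 level of the 36 genes relative to the vehicle mean was 0.18, 0.22 and 0.39 in high dose Banhasasim-tang, 0.11, 0.25 and 0.23 in high dose Aconiti Lateralis Radix Preparata and 0.13, 0.16 and 0.23 in high dose Cimicifugae Rhizoma (the plot of mean level). In the vehicle libraries it was -0.02, 0.05 and -0.03, below all 9 of these libraries. High dose Bupleuri Radix libraries, at -0.03, -0.10 and -0.04, and high dose Yijung-tang libraries, whose mean was -0.01 ± 0.0114, overlapped the vehicle, as did high dose Citri Unshius Pericarpium at 0.03 ± 0.0162. The mean averages over genes that rose and fell. In the single high dose library of Bojungikgi-tang it was 0.26, and 27 of the 36 genes were above all 3 vehicle libraries and 2 below, where 31.6% of all genes were above and 30.5% below. There MX1 stood at 16.3 CPM against 9.71 to 10.9 CPM in the vehicle, and XAF1 at 22.5 CPM against 13.6 to 15.5 CPM in the vehicle. TAP1 was at 94.5 CPM against 75.8 to 78.1 CPM in the vehicle, and IRF1 at 36.4 CPM against 25.3 to 27.4 CPM in the vehicle. IRF1 was 25.9 CPM at its low and 32.6 CPM at its medium dose, and none of these values has a replicate check.

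**Figure D4:**
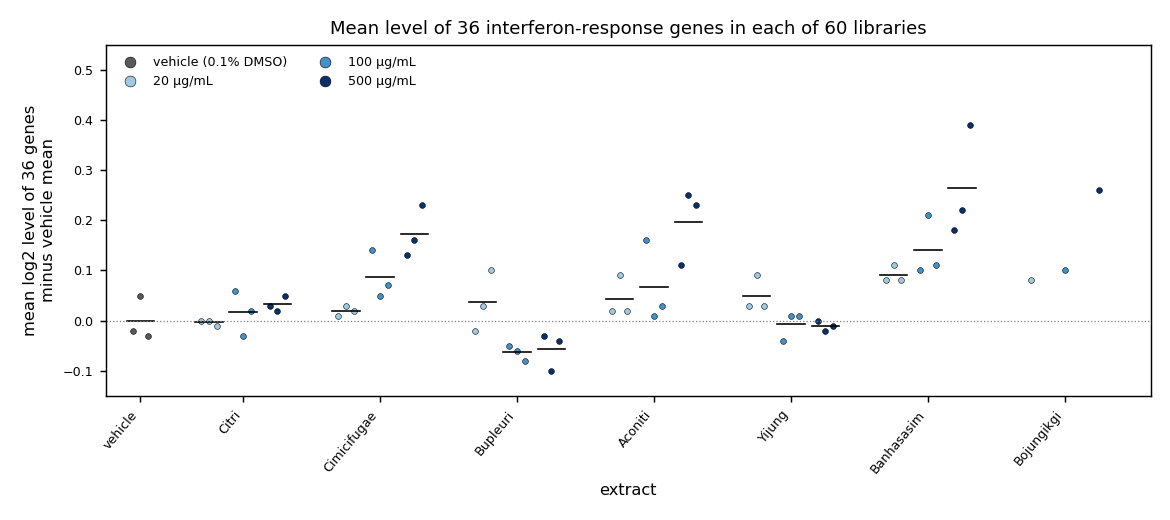
Mean over 36 genes of the log2 level minus the vehicle mean, in each of 60 libraries (points), with the vehicle at the left and doses in order within each extract; lines are means of 3 libraries. The high dose libraries of Cimicifugae Rhizoma, Aconiti Lateralis Radix Preparata and Banhasasim-tang lie between 0.11 and 0.39, above the vehicle libraries at -0.03 to 0.05.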

How the data were processed

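RNA from SW1783 cells was sequenced with paired ends from a directional kit, per the labels' protocols. The authors deposited 1 table of expected counts from RSEM 1.3.3; reads were checked with FastQC 0.11.9, trimmed with Trim Galore 0.6.5 and aligned with STAR 2.7.3a to hg38, per the submitters' processing notes. For the annotation release, the strand setting and filters: not given in the sources used here. Expected counts were rounded (9.22% of values were not whole), since reads shared by similar genes are divided by estimate. Gene coordinates come from GENCODE release 29 on GRCh38 and promoters from RefSeq on GRCh38.p14.

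In R 4.3.3, 57 libraries in 19 groups were fitted together with edgeR 4.0.16 (quasi-likelihood, TMM factors, filterByExpr by group, 17190 genes kept); errors of log2 changes are standard errors of the fit, and those of CPM are SD. Each library held 18.9 to 36.4 M expected counts, and replicate pairs differed by more than sampling noise (chi-square per degree of freedom 1.74 to 21.9). This value was 6.75 to 9.81 for pairs of high dose Yijung-tang and 2.82 to 4.5 for pairs of high dose Banhasasim-tang. Intervals are 95% intervals from the log2 change and its standard error by a normal approximation, and can be narrower than the test implies. The code was tested on simulated data. Alternatives were DESeq2 1.42.0, limma 3.58.1 with voom, no filter, the compared groups alone, replicate blocks, and leaving out libraries. Member genes and lists were chosen with earlier results of these data known. Values of every library were planned for the 8 members with the largest changes called in both the low dose and vehicle comparisons of an extract, and other members given by library were added to describe their role; other listed genes were to be named when called in both comparisons with a log2 change of at least 0.5, and those named below that size were chosen after their values were seen. The tests between extracts at the low dose were added after the high dose values had been seen. Planned protein sequences of IFITM1, IFITM2 and IFITM3 were not used here.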

Additional observations from a re-analysis of the deposited data

Results flagged for a closer look

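The change between high and low dose was compared between extracts of the same code set by a test of the difference itself (edgeR, adjusted over all genes). Values are differences in log2 change, and counts are given by pair beside the share of all genes. Between Aconiti Lateralis Radix Preparata and Bupleuri Radix the change differed for 18 of 36 genes, where it did for 44.0% of all genes. Between Aconiti Lateralis Radix Preparata and Bupleuri Radix the change was more positive in Aconiti Lateralis Radix Preparata for IFIT2 (1.61), IRF1 (1.33), STAT2 (1.01), IRF7 (0.96), OASL (0.92), TRIM25 (0.91), IFIT3 (0.73), XAF1 (0.66), HLA-B (0.45), SP100 (0.36), HLA-C (0.30), B2M (0.27) and TAP1 (0.26). It was more negative for IFITM2 (-0.40), SAMHD1 (-0.39), IFITM1 (-0.36), PARP9 (-0.31) and BST2 (-0.25).

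Between Yijung-tang and Banhasasim-tang it differed for 12 of 36 genes (10.1% of all genes) and was more negative in Yijung-tang for MX1 (-0.63), MX2 (-0.60), IFIT1 (-0.54), IRF1 (-0.49), XAF1 (-0.49), IFIT3 (-0.42), OAS3 (-0.40), IFI44 (-0.29), HLA-B (-0.26), IFIT5 (-0.23), B2M (-0.23) and SAMHD1 (-0.18). Between Cimicifugae Rhizoma and Citri Unshius Pericarpium it differed for 4 of 36 genes, no larger a share than the 11.1% of all genes. It differed for 0 with the compared libraries alone and 1 without the 2 libraries that stood apart. It was more positive in Cimicifugae Rhizoma for XAF1 (0.49), IFITM3 (0.37), PARP14 (0.32) and TRIM25 (0.18).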

How the results depend on the processing

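For the 36 genes, the number called between high and low dose was 1 in Citri Unshius Pericarpium and 5 in Cimicifugae Rhizoma when the compared groups were fitted alone, against 4 and 15 in the fit of 57 libraries. Over all genes that setting called 986 and 1446. The fit of 57 libraries called 1408 higher and 1727 lower, and 2004 higher and 2313 lower. Against the vehicle, the compared groups alone gave 10 in Cimicifugae Rhizoma, against 18, and 6 in Bupleuri Radix, against 2, where no filter on low counts gave 5. Over all genes they gave 2794 in Cimicifugae Rhizoma, against 2589 higher and 3003 lower. In Bupleuri Radix they gave 1383 over all genes, against 517 higher and 689 lower. The cause was not tested. Leaving out 1 library gave 2 to 5 genes in Citri Unshius Pericarpium, 2 to 4 in Bupleuri Radix and 5 to 12 in Banhasasim-tang between high and low dose, and 1 to 2 in Bupleuri Radix against the vehicle. Of the log2 changes recomputed for genes given by library, 456 stayed on the same side of the threshold, 30 lost the call and 0 changed sign.

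Between high and low dose of an extract, and between high dose and vehicle, deviations of same-numbered libraries correlated at -0.06 to 0.08. Same-numbered libraries of different extracts were not compared. With a replicate block, the count between high and low dose was 5 in Citri Unshius Pericarpium and 16 in Cimicifugae Rhizoma, while in high dose Banhasasim-tang against the vehicle 17 genes were higher and 1 lower, against 17 and 0 without the block. The block moved no count between high and low dose or between high dose and vehicle by more than 1.5 times. Low counts limit OAS1 and ISG20 most.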
